A study of Mus musculus with 39 samples.

Results

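The comparison of the lowest dose of KAL with the high fat diet alone rests on 12 of the 39 arrays of the series, 6 named HF5 and 6 named HFC. They were chosen by diet and time label, as every array of these diets at Weeks 3, 6, 9, 12, 15 and 18, with 1 array per diet and week. All were from C57BL/6J mice, a common laboratory strain, put on the diets after weaning at 3 to 4 weeks of age. HFC mice ate a diet rich in fat and sucrose. HF5 mice ate the same diet with 5 µg of KAL, a water-based botanical formulation, so the diet itself is shared by both groups. Weeks are counted from Day 14 of feeding. Per the labels, 5 animals of a group were killed at each time, and whether an array holds 1 animal or a pool is not stated. Since no diet was repeated at a week, the spread against which a difference is set here is the spread over weeks, with age and array included.

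Brown fat burns fatty acids to make heat. Its fat cells carry Ucp1, which lets protons back into the mitochondrial matrix without making ATP, and they switch on this programme when noradrenaline raises cyclic AMP. The labels name the source as the stromal vascular cells of brown fat and describe them as infiltrating macrophages. Such a preparation, made by taking floating fat cells off the digested tissue, also holds other leukocytes, endothelial cells, fibroblasts and nerve sheath cells. Levels below are log2 of the spot signal relative to the 75th percentile of the array, differences are HF5 minus HFC on that log2 scale, and a probe is called well above background by the scanner software.

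The labelled cell type was first checked against its markers. Of 7 defining macrophage markers, 6 were well above background on 12 of 12 arrays (Adgre1, Cd68, Csf1r, C1qa, C1qb and C1qc), and Itgam was so on 9. The RNA was not that of macrophages alone. Of 4 markers of fat cells in general 3 (Adipoq, Plin1 and Cfd) and of 4 markers of brown fat 3 (Ucp1, Cidea and Cox8b) were well above background on all 12, as were both endothelial and all 3 fibroblast markers. In such mixed RNA, fewer cells of a type and less RNA per cell cannot be told apart. On HFC Week 12 the call says less, since 91.6% of all spots there had it. That array was also the lowest of the 12 for 15 of 22 thermogenic genes.

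Several arrays stood apart from the rest. HF5 Week 9, HF5 Week 15, HFC Week 6 and HFC Week 9 were bright (75th percentile of 748 to 1076 intensity units, against 24.3 to 221 on 7 of the other 8) and correlated with each other at 0.96 to 0.98 over probes. HFC Week 12 was as bright (950) but correlated with these 4 at 0.79 to 0.83. The titles of both Week 9 arrays hold the letters BAT and that of HF5 Week 15 the letters BA, which are not explained. Week 9 thus compared arrays of this correlated kind with each other, but at Week 6 only the HFC array and at Week 15 only the HF5 array was of this kind. The weekly differences of Weeks 6 and 15 ran against each other, with a correlation of -0.77 across probes, which are not independent replicates. The other 14 pairs of weeks had correlations between -0.25 and 0.20. HF5 Week 12 correlated with the other arrays at a median of 0.82. It had 18.6% of its spots marked as outliers and HFC Week 12 had 11.1%, against 0.06% to 0.13% on the arrays of other weeks. At Week 12 the median difference of all probes was -1.21, against -0.07 to 0.20 at the other weeks.

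On HF5 Week 18, 5771 of 25693 probes tested (22.5%) shared 1 lowest value, -3.15, which is a floor rather than a level, so a Week 18 difference against it is a bound. On each of the other arrays at most 2 probes shared the lowest value.

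The HFC array of Week 12 differed in its makeup from the other HFC arrays. Ucp1 stood there at -3.18, beside a median of 6.30 over the 6 HFC arrays and a highest value of 6.70, and this array was the lowest of the 12 arrays for 15 of 22 thermogenic genes. It was also the highest of the 12 in the median level of the macrophage (2.92), cytokine (3.03), MHC class II (2.60) and mesothelial (1.86) lists. The series table deposited beside the scanner files did not give the same differences at this week. Weekly differences from the 2 sources correlated at 0.997 to 1.00 at the other 5 weeks and at 0.24 at Week 12. This does not show which of the 2 arrays of Week 12 departs from its table values. Results are given over all 6 weeks, and for the lists and genes that turn on these arrays also from the table or without the weeks concerned. Leaving out Weeks 6, 12 and 15 keeps Weeks 3, 9 and 18.

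**Figure D1:**
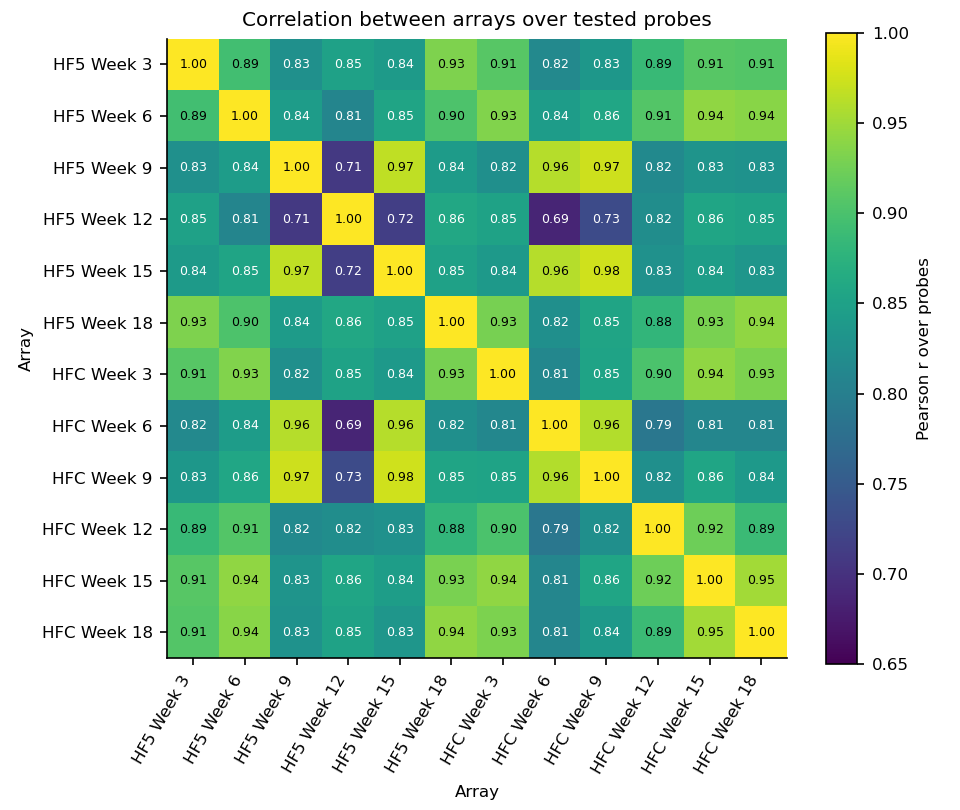
Correlation (Pearson r over tested probes) between each pair of the 12 arrays, HF5 first and HFC second, each by week, colored from 0.65 to 1. HF5 Weeks 9 and 15 and HFC Weeks 6 and 9 form a block of 0.96 to 0.98, and HF5 Week 12 is least like that block.

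Whether the low dose of KAL moved gene expression away from that of the high fat diet alone was asked first across all genes. With week as a block, 0 of 25693 probes (0%), which stand for 18582 genes, differed at an adjusted p of 0.05 (limma). The smallest of the adjusted values came to 1.00. Without adjustment, 241 probes (0.938%) had a p under 0.05, of which 124 (0.483%) were higher and 117 (0.455%) lower in HF5. The median standard error of a difference was 0.49 and the median residual SD 0.83 on the log2 scale. Differences well beyond this size did not pass either, such as -2.56 (SE 0.72) for BC048679. The absence of calls therefore does not exclude changes of that size. The median difference of all probes tested was -0.09, and 40.8% of them were above 0. Without Week 12 these values were 0.09 and 59.6%, and without Weeks 6, 12 and 15 they were 0.16 and 61.7%. Counts of list members above or below 0, and list medians, are to be read beside the values of the same setting. Leaving out Week 6 raised the probes at an unadjusted p under 0.05 to 1895 and leaving out Week 15 raised them to 928, and 0 passed after adjustment in both. Everything that follows on named genes and gene lists is therefore a description of levels and directions, since no gene named here passed the test.

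Week by week, the differences were large in both directions. At Week 9, where both arrays were of the bright kind, 1337 probes were at least 2-fold higher and 1150 at least 2-fold lower in HF5, and the SD of the weekly differences over probes was 0.74. At Week 15 there were 5584 and 7292 such probes with an SD of 1.77, and at Week 6 there were 6764 and 5606 with an SD of 1.71. Of 29 gene lists, 28 had medians of opposite sign at these 2 weeks. Over all weeks and lists, 0 lists had a member past the threshold. Array weights and the unpaired t-test were not run on list medians. Under every other alternative processing and choice of weeks run, 7 lists kept the sign of their median. These were the thermogenic, fatty acid oxidation and neutrophil lists, with medians above 0, and the endothelial, fibroblast, interferon and natural killer lists, with medians below 0.

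**Figure D2:**
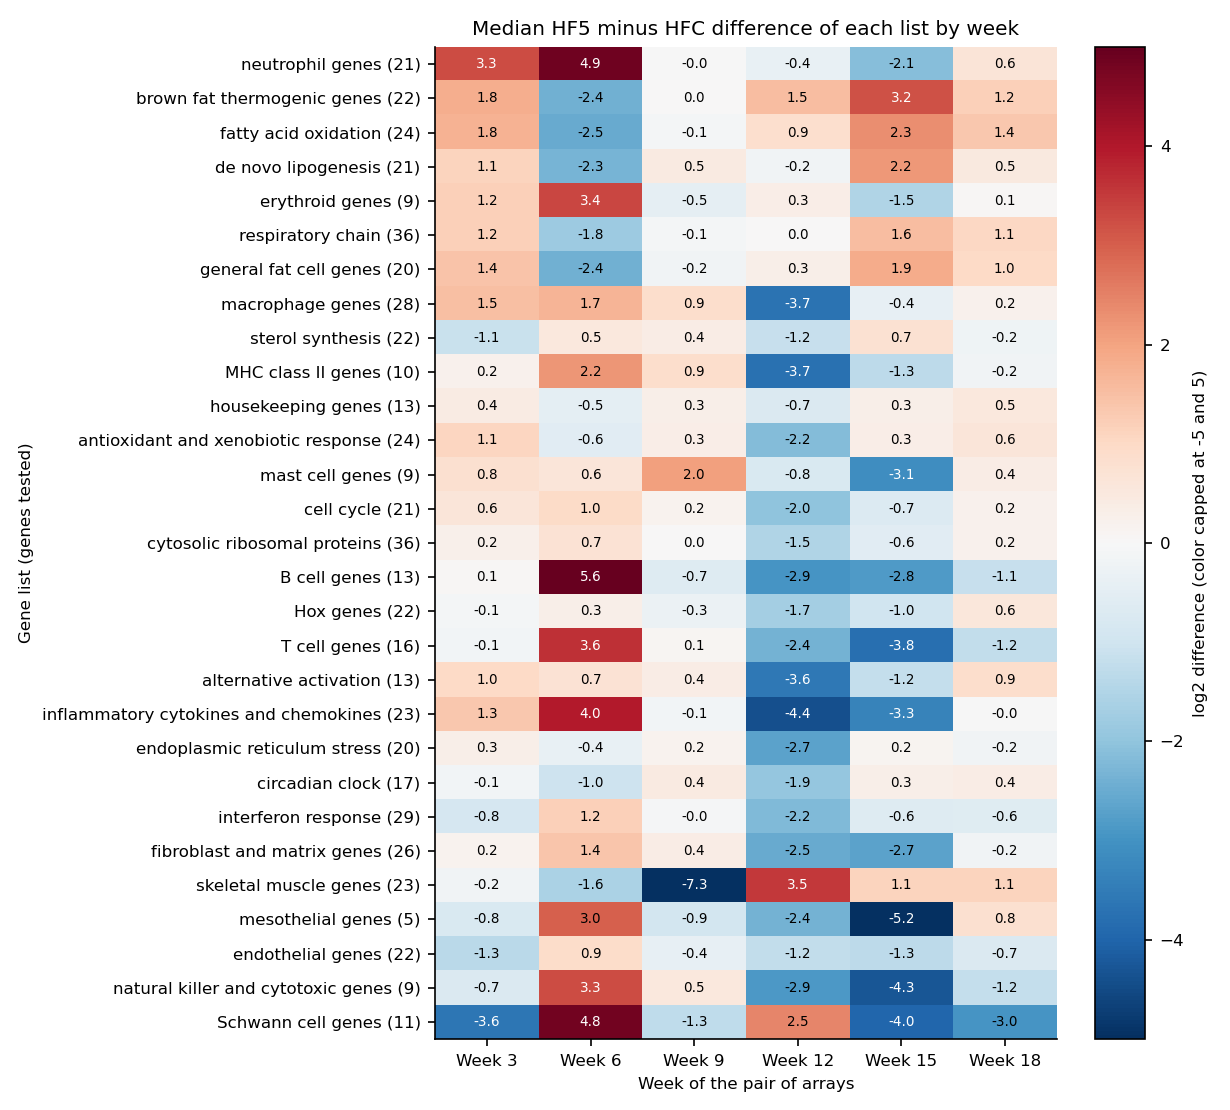
Median difference between HF5 and HFC of each gene list (rows, with the number of genes tested) in each week (columns), in log2 units, red where HF5 was higher and blue where it was lower. Columns for Weeks 6 and 15 show opposite colors in 28 of 29 rows. The endothelial row is below 0 at every week except Week 6, at 0.92. Row order follows the fitted median, whose sign changes with the processing or the choice of weeks for 22 of the 29 lists.

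The thermogenic genes of brown fat gave the highest median after the neutrophil list. Of 22 tested, 20 had a difference above 0 (beside 40.8% of all probes), with a median of 0.89. Dio2, which encodes the deiodinase that makes active thyroid hormone inside brown fat cells, lies on chromosome 12 in band D3. Its HF5 levels ran from -1.25 through a median of 1.50 to 4.17, and its HFC levels from -2.99 through -0.85 to 1.58. HF5 was higher at 5 of 6 weeks, Week 6 being the exception, though the groups overlapped. The fitted difference was 2.18 (SE 0.68), and without Weeks 6, 12 and 15 it was 2.59. From the deposited table it was 2.09.

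Elovl3, a fatty acid elongase induced in brown fat by cold (chromosome 19, band C3), was likewise higher in HF5 at 5 of 6 weeks. Its levels ran from -2.02 through -0.18 to 1.79 in HF5 and from -8.50 through -1.43 to -0.30 in HFC, where the lowest value was that of Week 12. The fitted difference was 2.56 (SE 0.80), and it was 1.77 without Week 12 and 1.59 from the table. Dio2 and Elovl3 were the members of this list at an unadjusted p under 0.05 in limma, 2 of 22 beside 0.938% of all probes.

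Ucp1 itself did not follow one direction. On chromosome 8 (band C2), its levels ran from 4.69 through 6.38 to 8.16 in HF5 and from -3.18 through 6.30 to 6.70 in HFC, and HF5 was higher at 3 of 6 weeks. The fitted difference of 1.87 (SE 0.96) was 0.67 without Week 12, where the scanner files gave 7.87 and the table -0.43. A second Ucp1 probe, measured at 5 weeks, gave 1.09 (SE 0.69). Cox8b, a cytochrome oxidase subunit of brown fat, and Cidea, a lipid droplet protein, moved with the same array: 1.70 and 1.50 over all weeks became 0.46 and 0.62 without Week 12. Ucp1, Cox8b and Cidea, like Adipoq, Acadm and Fasn among the genes that follow, had saturated spots on 2 arrays of each diet.

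Regulators of the programme differed less. Ppargc1a, the coactivator of mitochondrial genes, had a difference of 0.52 (SE 0.57), while Prdm16 and Ebf2, factors that commit cells to the brown fat fate, had -0.17 (SE 0.43) and -0.21 (SE 0.52), the values below 0 in the list. Otop1, a proton channel found in brown fat, had 1.67 (SE 0.95), and Slc27a2, a fatty acid transporter, had 0.96 (SE 1.06) with weekly values from -4.91 at Week 6 to 5.53 at Week 15.

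The weekly medians of the thermogenic list were 1.81, -2.39, 0.02, 1.55, 3.18 and 1.18 from Week 3 to Week 18. The median was 0.46 without Week 15, 1.64 without Week 6 and 0.48 from the table. Without Weeks 6, 12 and 15 it was 1.04, with 21 of 22 genes above 0, beside 61.7% of all probes in that setting. At Weeks 3, 9 and 18 together, 11 of 22 genes were higher in HF5 each time and 0 were lower, beside 23.1% and 10.7% of all probes. Genes of fat cells in general moved in the same weeks (1.44, -2.41, -0.18, 0.29, 1.86 and 0.99). Their summed level, on the log2 scale, ran from 9.04 to 11.85 in HF5 and from 7.62 to 10.71 in HFC, and their part in the thermogenic result was not tested.

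**Figure D3:**
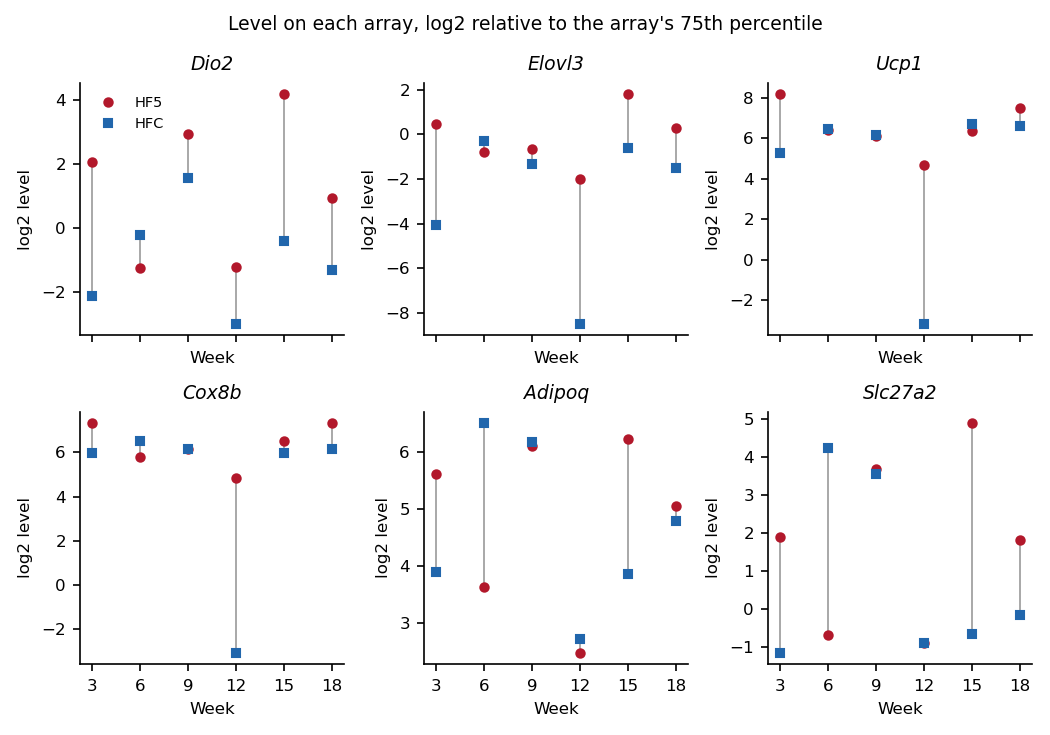
Level of 6 genes on each array (log2 relative to the array's 75th percentile, vertical axes that differ by panel) against week, HF5 as red circles and HFC as blue squares, with a grey line joining the 2 arrays of a week. Dio2 and Elovl3 are higher in HF5 at every week but Week 6, and the HFC array of Week 12 lies at -3.18 for Ucp1 and -3.05 for Cox8b.

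Cyclic AMP acts on many genes through the response element TGACGTCA or its shorter form TGACG. To show what stands before the starts of thermogenic genes, the 250 bases upstream of 3 of them are given as RefSeq has them (GRCm38.p6), 5′ to 3′ on the strand of the gene, with matches to TGACG on either strand in capitals. Matches on the 2 strands overlap in the full element. The windows are chr12:90739039-90739288 (minus strand) for Dio2, chr8:83290098-83290347 (plus strand) for Ucp1 and chr7:140900447-140900696 (minus strand) for Cox8b.
Dio2: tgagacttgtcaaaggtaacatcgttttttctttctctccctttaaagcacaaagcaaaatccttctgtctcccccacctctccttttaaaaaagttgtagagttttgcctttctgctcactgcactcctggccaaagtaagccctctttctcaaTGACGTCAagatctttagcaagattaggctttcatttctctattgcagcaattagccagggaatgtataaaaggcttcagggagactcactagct
Ucp1: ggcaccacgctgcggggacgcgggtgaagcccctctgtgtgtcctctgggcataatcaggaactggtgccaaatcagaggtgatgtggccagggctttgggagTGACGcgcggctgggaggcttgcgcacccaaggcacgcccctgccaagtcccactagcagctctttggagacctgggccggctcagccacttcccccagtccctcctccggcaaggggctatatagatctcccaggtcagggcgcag
Cox8b: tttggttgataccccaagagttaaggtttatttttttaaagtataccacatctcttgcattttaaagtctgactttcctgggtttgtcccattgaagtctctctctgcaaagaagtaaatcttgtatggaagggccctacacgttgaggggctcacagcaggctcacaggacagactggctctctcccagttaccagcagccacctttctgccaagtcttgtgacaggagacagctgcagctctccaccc
The Dio2 window held the full element, the Ucp1 window 1 match to the short form and the Cox8b window 0. Of 17 thermogenic genes with a window, 4 (23.5%) held TGACG, and 1 (5.88%) held the full element, beside 17.9% and 1.62% of 27025 genes in the whole table. A match of letters is no evidence of binding, and Elovl3 was not among the windows.

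Genes that burn and make fat were close behind. Of 24 fatty acid oxidation genes, 22 had differences above 0 with a median of 0.60. Acadm, the medium chain dehydrogenase, ran from 4.28 through 6.22 to 7.11 in HF5 and from 2.71 through 5.65 to 6.55 in HFC, and its difference was 0.81 (SE 0.49), higher at 5 of 6 weeks. Pdk4, which turns cells from glucose to fatty acids, had 1.02 (SE 0.76), while Cpt1a, the liver form of the enzyme that takes fatty acids into mitochondria, had -0.46 (SE 0.56) and its muscle form Cpt1b had 1.11 (SE 0.94). The median was 0.38 without Week 15 and 0.07 with normexp background correction, both still above 0, and it was 1.05 without Weeks 6, 12 and 15.

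Subunits of the respiratory chain had small differences. Of 36, 35 were above 0, from -0.03 (Ndufa1) to 0.60 (Sdha), with a median of 0.33 that turned to -0.30 with normexp background correction and was 0.73 without Weeks 6, 12 and 15. Of 21 genes of fat synthesis, 15 were above 0 with a median of 0.45, which turned to -0.08 with normexp and was 0.59 without Weeks 6, 12 and 15. Fasn, the fatty acid synthase, had 0.49 (SE 0.43), Scd1, a desaturase, had 0.52 (SE 0.65), and the related desaturase Scd2 had -0.87 (SE 0.85). Of 20 genes of fat cells in general, 16 were above 0 with a median of 0.28, which turned to -0.07 with normexp and to -0.06 without Week 15. Adipoq, the adipokine adiponectin, had a difference of 0.19 (SE 0.63) with HF5 higher at 3 of 6 weeks, and Lep, which encodes leptin, had -0.34 (SE 0.82). Of 22 sterol synthesis genes, 9 were above 0, near the 40.8% of all probes, with a median of -0.04. That median was 0.18 from the table and above 0 without Week 3 (0.15) or Week 12 (0.11).

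The endothelial list was the one in which every tested member lay on the same side. All 22 genes of the cells that line blood vessels had fitted differences below 0, where 40.8% of all probes were above it, from -1.46 to -0.22 with a median of -0.65. The list was lower in HF5 at 5 of 6 weeks (-1.33, 0.92, -0.41, -1.25, -1.29 and -0.74 from Week 3 to Week 18), Week 6 being the exception. At Week 12 the list lay close to the median of all probes (-1.21), and the table gave -0.37 in place of -1.25. Over all weeks the table gave a median of -0.475. At Weeks 3, 9 and 18 together, 14 of 22 genes were lower each time and 0 were higher, where 10.7% of all probes were lower. Of 18 measured at all 5 weeks other than Week 6, 10 were lower at each of them and 0 were higher, beside 6.23% and 2.67% of all probes. With 1 week left out at a time the median ran from -0.99 (without Week 6) to -0.48 (without Week 15).

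Tie1, an orphan receptor of the angiopoietin system (chromosome 4, band D2.1), ran from -2.21 through -0.44 to 0.95 in HF5 and from -0.54 through 0.87 to 1.29 in HFC. The groups overlapped, and the difference was -1.24 (SE 0.51), or -1.96 without Weeks 6, 12 and 15. Tek, the receptor of angiopoietins, had -0.98 (SE 0.45), lower at 5 of 6 weeks. Cldn5, a tight junction protein of vessels (chromosome 16, band A3), ran from 2.10 through 3.23 to 4.34 in HF5 and from 3.23 through 4.50 to 5.15 in HFC, with a difference of -1.14 (SE 0.49). Aplnr, the apelin receptor, gave -1.46 (SE 0.51) over 5 weeks, since its Week 12 spot was marked as an outlier and dropped. Aplnr, Tie1 and Cldn5 were the 3 members at an unadjusted p under 0.05 in limma, beside 0.455% of all probes in that direction.

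Other vessel genes kept the same side with smaller values. Kdr, the main VEGF receptor, had -0.76 (SE 0.43), Cdh5, the cadherin of vessel junctions, had -0.65 (SE 0.43) and its second probe -0.92 (SE 0.47), and Pecam1 had -0.66 (SE 0.53) over 5 weeks. Sox18, a transcription factor of vessel development, was lower in HF5 at 6 of 6 weeks with a difference of -0.58 (SE 0.37). Nos3 and Flt1 lay nearest to 0, at -0.23 (SE 0.47) and -0.22 (SE 0.44).

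**Figure D4:**
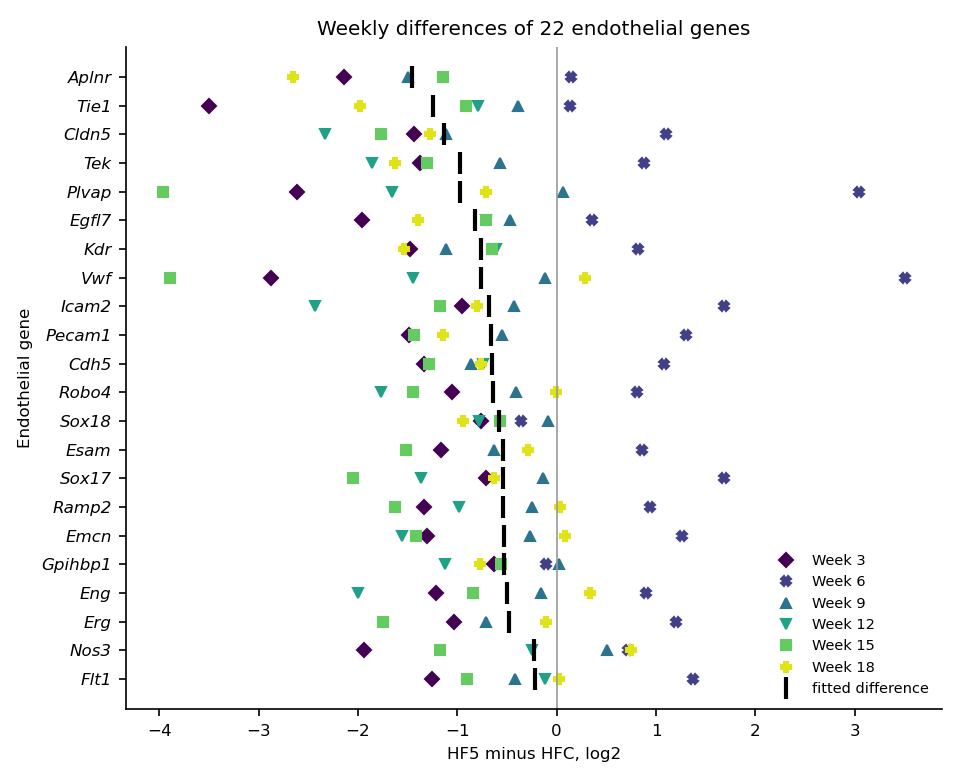
Weekly differences between HF5 and HFC (horizontal axis, log2) of the 22 endothelial genes tested (rows), with a symbol per week and a black tick for the fitted difference. All 22 ticks lie left of 0, while the Week 6 symbols lie right of 0 except for Sox18 and Gpihbp1.

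Fibroblast and matrix genes also had mostly negative differences, but from fewer weeks. Of 26, 25 were below 0 with a median of -0.59, whose lowest weekly values were those of Week 12 (-2.50) and Week 15 (-2.69). The median was -0.20 from the table and -0.01 without Weeks 6, 12 and 15. In that last setting 12 of 26 genes were above 0, beside 61.7% of all probes. Col1a1, a chain of type I collagen, had -0.87 (SE 0.71), Fbn1, the microfibril protein, had -1.40 (SE 0.81), and Pi16, found on fibroblasts around vessels, had -1.20 (SE 0.56). Of 29 interferon response genes, 27 were below 0 with a median of -0.56 (-0.20 without Week 12, -0.51 without Weeks 6, 12 and 15). Ifit1 had -1.18 (SE 0.61), lower at 5 of 6 weeks, and Oasl1 had -1.25 (SE 0.98), of which -7.09 came at Week 12. The mesothelial list had 4 of 5 genes below 0 with a median of -0.63, which turned to 0.64 without Week 15.

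Leukocyte genes had large differences that ran in different directions at different weeks. Macrophage genes had weekly medians of 1.51, 1.68, 0.87, -3.69, -0.41 and 0.22, so that HF5 was higher at Weeks 3, 6, 9 and 18 and lower at Weeks 12 and 15. The table gave -0.14 in place of -3.69 at Week 12. Their fitted median was 0.22 with 20 of 28 above 0, and it turned to -0.19 without Week 6, to -0.12 without Week 3, to -0.15 with normexp and to -0.06 with quantile normalization. It was 0.85 without Week 12, 0.67 from the table and 0.95 without Weeks 6, 12 and 15. In that last setting 25 of 28 were above 0, beside 61.7% of all probes. At Weeks 3, 9 and 18, 17 of 28 were higher each time and 2 lower, beside 23.1% and 10.7% of all probes. Fcgr1, a high affinity Fc receptor, was higher in HF5 at each of the 5 weeks measured, with levels of -0.17 to 3.20 (median 1.69) against -1.33 to 2.23 (median 0.84) and a difference of 1.17 (SE 0.42). Week 12 was dropped there. Adgre1, the surface antigen by which mouse macrophages are usually sorted, had 0.30 (SE 0.71) and Cd68 0.16 (SE 0.80).

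Neutrophil genes gave the highest median of the 29 lists, 1.06, with 20 of 21 above 0. The early weeks carried it, since the weekly medians were 3.27, 4.88, 0.00, -0.37, -2.12 and 0.64, and without Week 6 the median was 0.25, while without Weeks 6, 12 and 15 it was 1.25. S100a8, a calcium binding alarmin, ran from -3.70 through 2.69 to 6.31 in HF5 and from -3.38 through 1.23 to 4.86 in HFC. Its difference was 1.17 (SE 1.19), of which Week 6 gave 7.82. Chil1, a chitinase-like protein, had 2.69 (SE 0.87) and Fpr1, the formyl peptide receptor, had 1.90 (SE 0.83), both without Week 12. These were the 2 of 21 members at an unadjusted p under 0.05 in limma, beside 0.483% of all probes in that direction. Ngp and Camp, which mark maturing granulocytes, had 1.37 (SE 1.22, 5 weeks) and 1.06 (SE 0.94).

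Lymphocyte lists had large differences of opposite sign at the weeks where the 2 arrays were of different kinds. At Weeks 6 and 15 the medians were 5.56 and -2.84 for B cell genes, 3.63 and -3.76 for T cell genes and 3.26 and -4.26 for natural killer and cytotoxic genes. On HF5 Week 18, 10 of 16 T cell and 7 of 13 B cell genes stood at the floor. The fitted medians were -0.11 (8 of 13 below 0), -0.24 (11 of 16) and -0.78 (8 of 9), where 40.8% of all probes were above 0. Those of B and T cell genes turned to 0.41 without Week 15, and to 0.08 and 0.06 with normexp. Of 23 cytokine and chemokine genes, 19 were below 0 with a median of -0.27, which was 0.42 without Week 12, 0.24 without Week 15 and 0.27 from the table. Cxcl9, an interferon-induced chemokine, had -1.24 (SE 0.55), and Tnf had -1.53 (SE 1.43). Of 13 alternative activation genes, 9 were below 0 with a median of -0.27 (0.49 without Week 12, 0.36 from the table), from Retnla at -1.36 (SE 0.68) to Chil3 at 1.77 (SE 0.99). The MHC class II list had 5 of 10 on each side with a median of -0.05, and mast cell genes had 5 of 9 below 0 with a median of -0.08. The medians of both turned above 0 without Week 12 (0.24 and 0.06, beside 0.09 for all probes) or without Week 15 (0.17 and 0.59).

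The change between early and late weeks was tested on the weekly differences, Weeks 12 to 18 against Weeks 3 to 9. In limma 0 of 25693 probes (0%) passed, with a smallest adjusted p of 0.70, while 1807 had an unadjusted p under 0.05. The median shift of all probes was -0.43. Lists shifted both ways: macrophage genes by -2.32, neutrophil genes by -3.68, T cell genes by -3.72, fibroblast genes by -2.32 and mesothelial genes by -2.34, but thermogenic genes by 1.97 and skeletal muscle genes by 4.48. Week 6 lies on one side of this split and Week 15 on the other, where the arrays were of different kinds, and the late side holds Week 12, where the table gave other values (cytokine genes -0.70 in place of -4.39). The part of these arrays in the shifts was not tested. Laptm5, a lysosomal protein of blood cells, had the smallest p. It was higher in HF5 by 1.67, 3.43 and 1.10 at Weeks 3, 6 and 9 and lower at Weeks 12, 15 and 18 (-3.56, -2.51 and -2.87), with an adjusted p of 0.70 in limma. Il1r2, the decoy receptor of interleukin 1, had 3.28, 2.94 and 2.87 early and -2.24, -4.12 and -0.18 late.

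Genes of the nerve sheath had large differences in both directions. The 11 Schwann cell genes had weekly medians of -3.61, 4.81, -1.25, 2.45, -3.97 and -2.95, so HF5 was lower at 4 weeks and higher at Weeks 6 and 12. The fitted median was -0.84, with 10 of 11 below 0. It was -2.45 without Weeks 6, 12 and 15, -1.19 from the table, and 0.20 without Weeks 9 and 15. At Weeks 3, 9 and 18, 8 of 11 were lower each time and 0 were higher, beside 10.7% and 23.1% of all probes. On HF5 Week 18, 2 of the 11 stood at the floor. Skeletal muscle genes rested on 1 week. Of 23, 20 were below 0 with a median of -0.62, but the weekly medians were -7.30 at Week 9 and between -1.59 and 3.53 at the others, and without Week 9 the median was 0.76. Acta1, the skeletal actin, differed by -6.76 at Week 9. The erythroid list had 7 of 9 above 0 with a median of 0.39, which turned to -0.09 with normexp.

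Since no gene passed the threshold, the genes whose 6 weekly differences had 1 sign were taken as a description. Among probes measured at all weeks, 52 of 20792 (0.25%) were higher and 152 (0.731%) lower in HF5 at 6 of 6 weeks, and 6 (0.0289%) had groups that did not overlap. The share of higher among these was 25.5%, and it depended on the scaling, at 13.5% with quantile normalization, 4.64% with normexp and 47.6% with outlier-marked spots kept. On HF5 Week 18, 38 of the 52 and 28 of the 152 stood at the floor. Of 11745 genes read from their brightest probe and well above background on 9 or more of the arrays, 4 were higher and 82 lower at each week.

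Hoxd8, a homeobox gene of body position (chromosome 2, band D), was lower in HF5 at every week and the groups did not overlap. Its levels ran from -3.50 through -2.79 to -2.07 in HF5 and from -1.80 through -1.55 to -1.13 in HFC, for a difference of -1.30 (SE 0.39). It was -0.96 from the table and -0.14 with normexp. Its HF5 Week 18 value was at the floor. Its probe was well above background on 4 HF5 and 5 HFC arrays. F2r, the thrombin receptor (chromosome 13, band D1), was the other gene named here without overlap. It ran from -1.59 through 0.20 to 0.53 in HF5 and from 0.65 through 1.04 to 1.55 in HFC, with a difference of -1.22 (SE 0.45), or -0.83 without Week 12 and -0.68 from the table, where Week 12 itself was 0.11.

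Kit, the stem cell factor receptor that mast cells and some progenitors carry (chromosome 5), had the largest fitted difference below 0 among genes of this kind, of which Week 12 gave -3.88 (table -0.34). Without Week 12 it was -0.91, behind BC030415 (-1.30), Bahcc1 (-1.17), Hoxd8 (-1.09), LOC100048446 (-1.07) and RP23-303F24.3 (-0.94). Without Weeks 6, 12 and 15 Kit had -0.84. It ran from -3.75 through -1.79 to 0.65 in HF5 and from -1.64 through -0.23 to 0.98 in HFC. The difference was -1.40 (SE 0.50), and its 2 other probes were also lower at 6 of 6 weeks (-1.55, SE 0.57, and -1.44, SE 0.54). Of the 9 mast cell genes tested, Kit included, 5 were below 0 and 4 above, with a median of -0.08. Kit was the 1 member lower at 6 of 6 weeks. Cpa3, a mast cell protease, had -0.08 (SE 0.68) and Tpsb2, a tryptase, had 0.24 (SE 0.75, 5 weeks). Cd38, an enzyme that consumes NAD, had -1.25 (SE 0.54), of which Week 12 gave -3.86 and Week 3 only -0.004. Rnf125, a ubiquitin ligase, had -1.15 (SE 0.47), with -0.02 at Week 6. Bahcc1, a chromatin protein, had -1.10 (SE 0.37) with weekly values between -1.86 and -0.62 and its HF5 Week 18 value at the floor. LOC675467, BC030415, RP23-303F24.3, Ankrd6, LOC100048446 and Gm3269 complete the 12 largest, from -1.28 to -1.09. With normexp, RP23-303F24.3 and Gm3269 turned to 0.03 and 0.01, and LOC675467 and LOC100048446 came to -0.03 and -0.01. A second probe of LOC675467 had 0.16 (SE 0.55) with 4 of 6 weeks higher, and a dimmer Cd38 probe was lower at 4 of 6 weeks.

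The 4 genes higher at every week were Itih4, Ccnc, Gm8539 and Sap30bp. Itih4, a secreted protein of the inter-alpha-trypsin inhibitor family (chromosome 14), ran from -3.06 through -0.18 to 1.09 in HF5 and from -3.58 through -2.33 to -0.13 in HFC. The difference was 1.29 (SE 0.48), though in the table Week 12 was -2.63. Ccnc, a cyclin of the Mediator complex, had 0.49 (SE 0.36), and its second probe had 0.13 (SE 0.38) with 2 of 6 weeks higher. Gm8539 had 0.39 (SE 0.37), with only 0.00059 at Week 6 and 0.051 at Week 9. Its second probe had 0.35 (SE 0.43) and was lower at 1 of 5 weeks. Sap30bp, a binding protein of a histone deacetylase complex, had 0.22 (SE 0.35), with 6 weekly values between 0.13 and 0.28, and it turned to -0.05 with normexp.

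**Figure D5:**
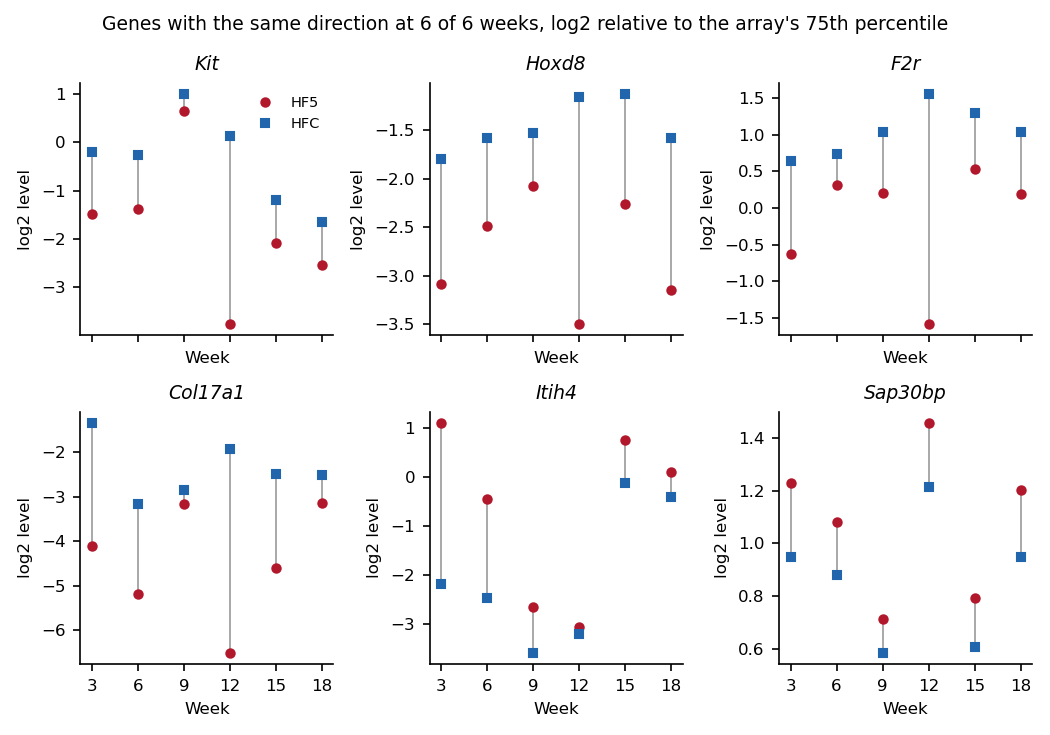
Level of 6 genes on each array (log2 relative to the array's 75th percentile, vertical axes that differ by panel) against week, HF5 as red circles and HFC as blue squares, with a grey line joining the arrays of a week. Kit, Hoxd8, F2r and Col17a1 are lower in HF5 at 6 of 6 weeks, and Itih4 and Sap30bp are higher. Sap30bp turned to -0.05 with normexp.

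By p alone, the first 3 genes (adjusted p of 1.00 in limma) were Gen1, Col17a1 and BC048679. All were dim. Gen1, a nuclease that resolves DNA junctions, had 1.52 (SE 0.40) with its probe well above background on 3 arrays of each diet, and its other 2 probes were above 0 at 4 and 5 of 6 weeks. Col17a1, a transmembrane collagen (chromosome 19), ran from -6.50 through -4.35 to -3.15 in HF5 and from -3.16 through -2.50 to -1.35 in HFC, with a difference of -2.07 (SE 0.56), or -0.04 with normexp. The highest HF5 value is the floor of Week 18, as is the Week 18 value of Gen1. A second Col17a1 probe was lower at 2 of the 5 weeks it was measured. BC048679 had -2.56 (SE 0.72), lower at 5 of 6 weeks. The share of spots well above background differed by array, from 31.2% on HF5 Week 18 to 91.6% on HFC Week 12. Of 18552 genes, 0 were well above background on 6 HF5 and at most 2 HFC arrays, while 6 were so with the diets exchanged. The 5 brightest of them were Kcnmb4, a potassium channel subunit, Ugt8a, which makes the galactolipid of myelin, Chrna1, a subunit of the muscle acetylcholine receptor, Lrrc75b and Olfr59. Chrna1 was lower in HF5 at each of the 5 weeks measured (-1.32, SE 0.45), while Kcnmb4 and Ugt8a differed by 7.22 and 6.76 at Week 6 and by -6.99 and -6.68 at Week 15. Kcnmb4, Ugt8a, Lrrc75b and Olfr59 stood at the floor on HF5 Week 18.

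The remaining lists had medians between -0.31 and -0.05, beside -0.09 for all probes, of which 40.8% were above 0. Cytosolic ribosomal proteins had 30 of 36 below 0 with a median of -0.11, and housekeeping genes had 7 of 13 below 0 with -0.05. Both turned above 0 without Week 12 (0.12 and 0.18), where the median of all probes also turned above 0 (0.09, with 59.6% above 0). Cell cycle genes had 14 of 21 below 0 with -0.08 (0.15 without Week 12), and endoplasmic reticulum stress genes had 15 of 20 below 0 with -0.27 (0.07 without Week 12). Hox genes had 9 of 22 above 0, near the share of all probes, and 13 below, with a median of -0.20. It was 0.03 without Week 12 and 0.11 with normexp. Of 24 antioxidant and xenobiotic genes, 14 were below 0 with a median of -0.06, which was 0.31 without Week 12. Without Weeks 6, 12 and 15 it was 0.73, with 19 of 24 above 0, beside 61.7% of all probes. At Weeks 3, 9 and 18, 14 of 24 were higher each time and 0 lower, beside 23.1% and 10.7% of all probes. Hmox1, haem oxygenase, differed from the rest of that list at 1.80 (SE 0.63), and was higher in HF5 at 5 of 6 weeks, with levels of -1.27 to 6.01 (median 1.77) against -1.74 to 2.19 (median 0.15). Of 17 circadian clock genes, 12 were below 0 with a median of -0.31, or 0.10 without Weeks 6, 12 and 15. Nr1d1, a clock repressor, was lower at 5 of 6 weeks, with a difference of -1.35 (SE 0.53).

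The low dose was then set against the higher ones. In limma over the 24 arrays of HFC and the 3 doses, 0 of 30097 probes (0%) differed between HF5 and HF20, with a smallest adjusted p of 1.00 and 554 probes at an unadjusted p under 0.05. Between HF5 and HF75 0 differed (0%), with a smallest adjusted p of 0.58 and 1323 probes unadjusted. Each dose was compared with the same 6 HFC arrays, so the values against HFC are given side by side only. The median of the thermogenic list against HFC was 0.89 for HF5, 0.82 for HF20 and 0.40 for HF75, and that of the endothelial list -0.65, -0.83 and -0.18. The neutrophil list gave 1.06, 1.10 and 1.27, and the Schwann cell list -0.84, 0.59 and 0.89. Dio2 had 2.18, 1.46 and 0.85, Tie1 -1.24, -0.85 and -0.62, Kit -1.40, -1.17 and -1.18, and Itih4 1.29, 1.66 and 2.23.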

How the data were processed

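RNA of brown fat stromal vascular cells was hybridized to 1-colour Agilent mouse arrays. The intensity values are those of the scanner files as deposited, background-subtracted by Agilent Feature Extraction (9.1 per the submitters' notes, 10.5.1.1 per the file headers), with no scaling between arrays. A series table of log2 values, deposited by the authors, was used as an alternative. How its values were scaled is not given in the sources used here, and its Week 12 differences did not follow those of the scanner files. The study's t-test over replicates of a time point could not be run with 1 array per diet and week.

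Control spots and spots marked as outliers were dropped, log2 signals were set relative to the 75th percentile of each array, and spots of a probe were averaged. Of 40628 probes, 30735 were named through gene identifiers, 2553 through accessions (RefSeq tables, GRCm38.p6) and 7340 by the deposited symbol, and cytobands are those deposited. Outlier marks removed a week for 4901 of the probes tested, whose fits rest on the remaining weeks.

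Probes that 6 or more of the 12 arrays measured well above background were fitted in limma 3.58.1 (R 4.3.3) with diet and week as terms, Benjamini-Hochberg adjustment over all probes tested and two-sided tests. HF5 and HFC arrays of a week shared a scan date and lay on different slides. A gene was read from its brightest probe by mean level. Named genes were those with 6 weekly differences of 1 sign, on at least 9 arrays well above background (the 12 largest each way), the 3 smallest p, genes well above background in all arrays of 1 diet and at most 2 of the other, and members of gene lists. List medians, counts and summed levels are descriptions without a test. The members, lists and rules were chosen with earlier results of these data known. Alternatives covered background correction, scaling, filters, outlier marks, the week term, the arrays fitted, array weights, the methods' t-test and the table. Leaving out Weeks 6 and 15, or 6, 12 and 15, and dropping the floor values of HF5 Week 18, were chosen after seeing the data. The fit was tested on simulated data. The number of arrays limits the precision, and p-values measure the spread between weeks and arrays, since separate animals per array are not stated.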

Additional observations from a re-analysis of the deposited data

Results flagged for a closer look

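The weekly differences of 29 lists and 38 sets of gene levels, each of 1 gene in 1 diet, were examined. A single value far from the other 5 was sought, which chance gives in about 1 of 20 groups of 6. The B cell list differed by 5.56 at Week 6, above its other weeks, and the endoplasmic reticulum stress list by -2.69 at Week 12, beneath its other weeks. Among gene levels in HF5, Gm8539 had a lowest value of -1.85 and Rnf125 a lowest value of -1.26.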

How the results depend on the processing

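No probe passed the adjusted threshold for HF5 against HFC in any alternative run, nor did any for HF5 against HF20, HF5 against HF75 or late against early weeks. Without the HF20 array of Week 15, the dose comparisons had 468 and 1463 probes at an unadjusted p under 0.05, and with outlier-marked spots kept the late comparison had 1573. Against 241 probes in the main fit, normexp gave 136, quantile normalization 407, the array median 186, the 75th percentile of detected probes 282, no filter 442 of 40628, a filter of 10 arrays 95 of 16116, outlier-marked spots kept 330, the additive fit of 39 arrays 498, the methods' t-test 225, the deposited table values 326 and array weights 2605. With 1 week left out the count ran from 98 (Week 3) to 1895 (Week 6). Without Weeks 9 and 15 it was 879, without Weeks 6 and 15 it was 1586, and without Weeks 6, 12 and 15 it was 2195, with a smallest adjusted p of 0.26 in limma. With the floor values of HF5 Week 18 dropped it was 204. The last 3 were chosen after seeing the data.

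Fitted without the replicate block (the week left out), 0 probes passed and 151 had an unadjusted p under 0.05. The residuals of arrays of the same week correlated at 0.33, -0.35, 0.79, 0.28, -0.53 and 0.48 from Week 3 to Week 18, so the pairing was not borne out at each week. Scan date coincided with week and was not run as a block of its own.

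The median of all probes ran from -0.23 (array median) to 0.16 (without Weeks 6, 12 and 15). Probes higher at 6 of 6 weeks numbered 52, against 34 with quantile normalization, 32 with the array median, 86 with the percentile of detected probes, 7 with normexp and 140 with outlier-marked spots kept. With normexp, 3 named genes changed sign: the log2 difference of Sap30bp was -0.047, the log2 difference of RP23-303F24.3 was 0.025 and the log2 difference of Gm3269 was 0.00624. The other 406 values of named genes kept the main direction, though with normexp the size was far smaller for several: the log2 difference of Col17a1 was -0.045, the log2 difference of Hoxd8 was -0.14, the log2 difference of LOC675467 was -0.028 and the log2 difference of LOC100048446 was -0.011. The causes were not tested. Of 29 list medians, 22 changed sign in at least 1 alternative, array weights and the methods' t-test not being among those run on lists. Dim probes and the outlier marks of Week 12 limit what single genes can show.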

Other observations

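Without Weeks 6, 12 and 15, the 12 genes with the smallest p, named here after their values were seen and with 0 past the threshold, included Ncmap, Ugt8a, Prx, Mbp, Pllp and Bcas1, which are known from myelin, and Kcnmb4, Sbspon, Fam178b, Mlip, Cdh1 and Urad. Ncmap, a myelin-associated protein, was lower in HF5 by -4.59, -3.90 and -4.47 at Weeks 3, 9 and 18, with a fitted value of -4.32 and an adjusted p of 0.26 in limma. Kcnmb4 had -3.95 (adjusted p of 0.26 in limma). The HF5 Week 18 values of Kcnmb4, Ugt8a, Pllp and Fam178b were at the floor of that array. Pllp, a proteolipid of myelin, had -4.28, Prx, the periaxin of Schwann cells, had -3.20, and Mbp, the basic protein of myelin, had -3.23. Over all 6 weeks the same fitted values were -1.76 for Ncmap, -1.62 for Kcnmb4, -1.86 for Pllp, -0.84 for Prx and -0.76 for Mbp, since each was higher in HF5 at Weeks 6 and 12. Urad, which acts in uric acid breakdown, was the one gene among the first 12 that was higher in HF5 in this setting, at 2.37.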
